A study of Mus musculus with 20 samples.

Results

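The 9 genes described here carry vitamin A through the liver, from the plasma carrier to the enzymes that store, oxidise and clear it: Rbp4, Ttr, Lrat, Rdh10, Rdh16, Dhrs3, Rdh11, Cyp26a1 and Cyp26b1. They were chosen by name from the 38924 genes of the expression table, each matched 1 row, and all 9 passed the filter on low values. Liver RNA was sequenced from 20 male mice, 5 per group, all of which arrived at 5 weeks of age, were acclimated for 1 week and were then fed for 12 weeks. NDWT mice were wild type (WT) on control diet, and NDKO mice were TSP-1 knockout animals, called TSP-1 null or null here, on the same diet. HFWT and HFKO mice were the same genotypes on CDAHFD, a high fat diet that is choline deficient and built from L-amino acids. The labels give the strain background of all 4 groups as C57/BL6, and the study's methods name C57BL/6J for the WT mice. The knockout is not confined to a cell type, and whole liver was measured. The study asked how the diet, a model of steatohepatitis with fibrosis, and the loss of TSP-1 alter the liver transcriptome.

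The liver takes up most dietary vitamin A and releases it again as retinol bound to the carrier Rbp4, which travels in plasma with transthyretin (Ttr). Surplus retinol is esterified by Lrat and stored in the lipid droplets of hepatic stellate cells, which are known to lose these stores when they become collagen-producing myofibroblasts. Retinol that is not stored can be oxidised to retinaldehyde and on to retinoic acid, the ligand of the nuclear receptors Rara, Rarb and Rarg, and the enzymes of the Cyp26 family remove retinoic acid by hydroxylation.

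Retinoic acid receptors, paired with a retinoid X receptor, are known to bind direct repeats of a short hexamer, and Cyp26a1 and Rarb are textbook targets of such repeats. Promoters from RefSeq (GRCm38.p6, 250 bases before to 50 after each annotated start) were searched for a direct repeat with 5 bases between its hexamers, each of which could be AGGTCA or AGTTCA, or else GGGTCA or GGTTCA, on both strands. Such a repeat was found in 32 of 32851 promoters (0.0974%). RefSeq promoters were matched for 7 of the 9 genes, and among them only that of Cyp26a1 held the repeat. Of the 75 further genes of the retinoid pathway described below, only Rarb held it. The promoter stretches of both retinoic acid hydroxylases are shown because in WT these related enzymes had the highest and the lowest log2FC of the 9 genes on CDAHFD, and each stretch stops before the earliest annotated start. Capitals mark the repeat with its spacer, which lies from base -32 to base -16 of the RefSeq start of Cyp26a1, a later start than the one where the stretch stops. No capitals appear in the Cyp26b1 stretch.
Cyp26a1, chr19:37697558-37697797, plus strand: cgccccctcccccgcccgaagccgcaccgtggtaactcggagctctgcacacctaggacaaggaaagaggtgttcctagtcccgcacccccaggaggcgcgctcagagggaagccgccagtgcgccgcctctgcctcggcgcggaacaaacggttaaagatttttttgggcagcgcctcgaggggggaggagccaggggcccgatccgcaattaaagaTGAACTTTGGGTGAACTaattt
Cyp26b1, chr6:84593909-84594060, minus strand: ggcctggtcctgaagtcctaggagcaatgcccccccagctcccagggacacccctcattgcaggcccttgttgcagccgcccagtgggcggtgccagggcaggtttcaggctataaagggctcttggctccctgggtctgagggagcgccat
The repeats of the Cyp26a1 and Rarb promoters are set side by side below because both genes were higher on CDAHFD, with the hexamers in capitals and the Cyp26a1 repeat read on its minus strand.
Cyp26a1 repeat, chr19:37697776-37697792: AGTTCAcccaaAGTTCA
Rarb repeat, chr14:16575513-16575529: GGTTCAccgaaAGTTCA
The repeat was found in the promoters of 31 genes, of which 5 were expressed above the filter. Of these 5, Cyp26a1, Tnfsf13b, Rarb and Blvrb were called higher on CDAHFD in both genotypes and Ppbp was not called in either, where 44.1% of all genes were called higher in WT and 41.9% in null mice. The call of Cyp26a1 had to come, since it passed the filter only through the CDAHFD libraries. The calls come from a fit that does not centre the median gene, and 5 genes are too few to set against these shares. With 2 bases between the hexamers 4 of 11 tested genes were called higher in WT, and with 1 base 12 of 28. A match describes letters in a window and was not tested as a binding site. Repeats with 2 bases between the hexamers (0.268% of promoters) or 1 base (0.222%) were found in no promoter of the 9 genes.

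Values are FPKM (fragments per kb of gene, scaled to the fragments assigned to genes in the library), which are comparable between genes because they are per length. Libraries held 15641545 to 23276322 fragments, and 3 fragments on a gene of 1 kb corresponded to 0.129 to 0.192 FPKM. Over 14524 genes, limma was run on log2(FPKM + 0.1), and a gene was called differentially expressed (a DEG) where its FDR was under 0.05 and its log2FC beyond 0.58 in either direction. FDRs below come from that fit. The median log2FC of all tested genes was 0.53 for CDAHFD against control diet in WT and 0.50 in null mice, so a gene with a log2FC of 0 ranks below most genes. HFWT replicate 5 stood apart, with 4.47% of its fragments on Gm26924 against at most 1.83% elsewhere, and HFWT replicate 4 had the lowest value of its group for 10 of 11 stellate cell markers. Thbs1, which encodes TSP-1, was at 0.197 ± 0.103 FPKM in NDWT and 1.30 ± 0.390 FPKM in NDKO (SD, n = 5), higher in the libraries labelled TSP-1 null (log2FC 2.28, SE 0.24, FDR = 1.02e-05). On CDAHFD it was at 4.62 ± 1.22 FPKM in HFWT and 3.44 ± 0.547 FPKM in HFKO (log2FC -0.39, FDR = 0.41). These values go against the genotype labels on control diet, although a gene-level value can include fragments from outside the altered part of the gene. Every direction by genotype below is therefore a comparison of libraries labelled TSP-1 null with libraries labelled WT.

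The plasma carriers were by far the most abundant of the 9 genes. Averaged over the 4 groups, Ttr was at 2778 FPKM and Rbp4 at 2272 FPKM, Dhrs3 at 54.8, Rdh16 at 23.5, Rdh11 at 6.67, Rdh10 at 6.15, Lrat at 3.84, Cyp26a1 at 2.02 and Cyp26b1 at 1.88 FPKM. The liver label was borne out by hepatocyte markers, of which 8 of 8 were found and which summed to between 23804 and 42027 FPKM in every library, while pancreatic acinar markers summed to at most 0.561 FPKM in any library.

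**Figure D1:**
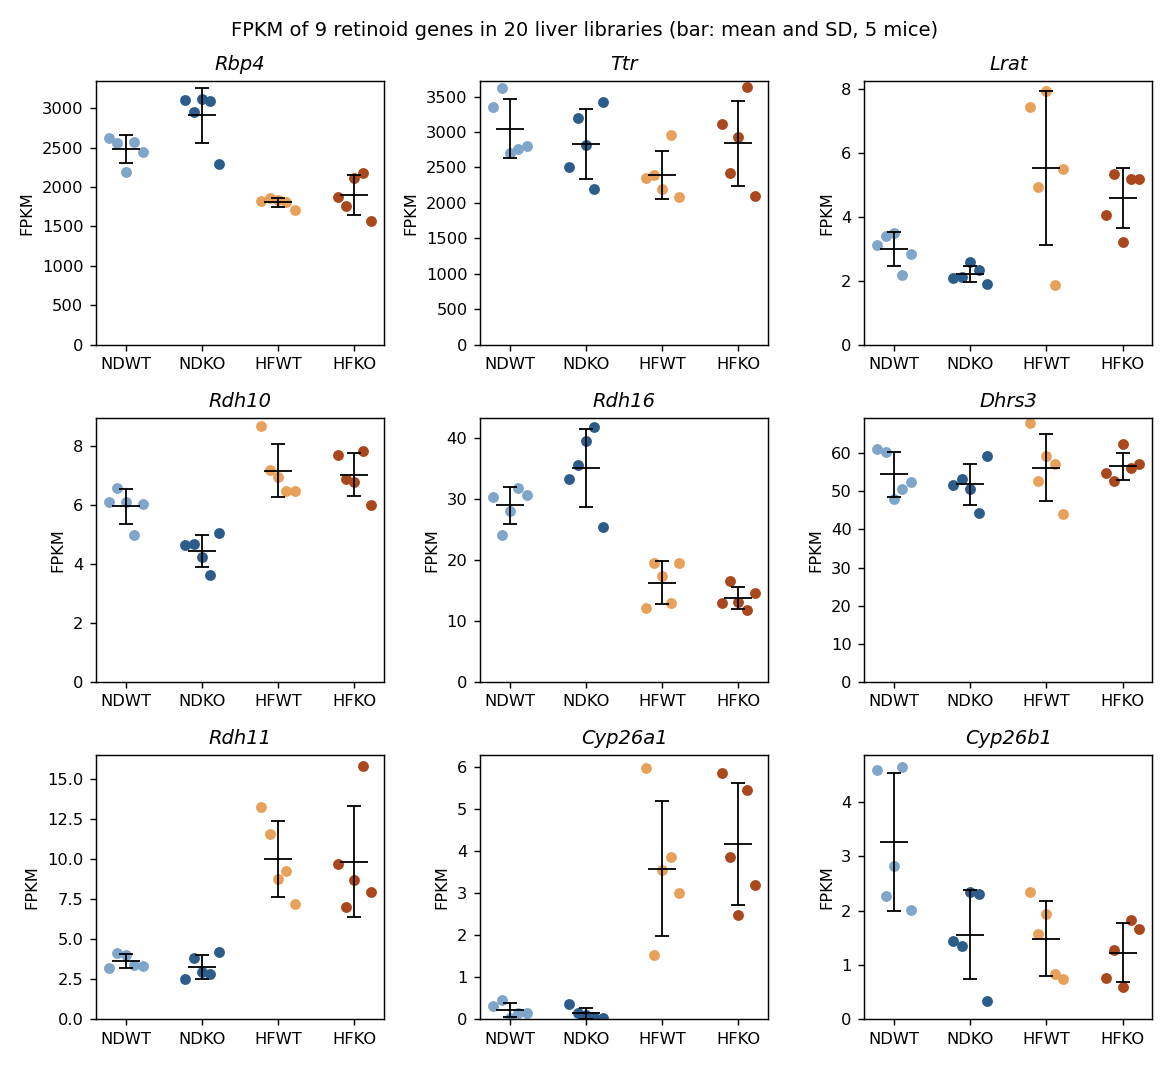
FPKM of the 9 retinoid genes in each library, on a linear axis from 0, for NDWT, NDKO, HFWT and HFKO, with the mean and SD of 5 mice in black. Cyp26a1 was at 0.439 FPKM or less in every control diet library and at 1.53 FPKM or more in every CDAHFD library, whereas the groups of Dhrs3 and Ttr overlapped throughout.

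On CDAHFD, the 9 genes did not move together. Cyp26a1 rose from near the detection limit in both genotypes (12.2-fold in WT and 19.7-fold in null mice on the log2 scale with pseudocount), Rdh11 rose 2.68-fold and 2.90-fold, and Lrat rose 1.66-fold and 2.00-fold. Rdh16 fell 1.80-fold in WT and 2.52-fold in null mice. Cyp26b1 fell 2.19-fold in WT, and in null mice Rbp4 fell 1.53-fold and Rdh10 rose 1.57-fold, with no difference between the genotypes' responses called for any of the 3. Lrat and Rdh10 were not called under scalings that centre the median gene. Dhrs3 and Ttr were not called in either genotype.

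In WT mice, 5 of 9 genes were called, where 48.8% of all tested genes were called. The called genes were higher in 3 cases (44.1% of all genes) and lower in 2 (4.62% of all genes). For the null genotype 6 of 9 were called, against 45.9% of all genes, with 4 higher (41.9%) and 2 lower (4.00%). Groups did not overlap for 4 of the 9 genes in WT (56.2% of all genes) and for 6 in null mice (57.8% of all genes). The median log2FC of the 9 genes was 0.04 in WT and 0.13 in null mice, below the medians of all genes. Under median of ratios scaling, which centres the median gene at 0, the WT comparison gave 6 calls, 2 of them higher and 4 lower, and the null comparison gave 4 calls, 2 each way. Cyp26a1, Rdh11 and Rdh16 were called in the same direction under every one of the 31 alternatives in both genotypes, including each left-out library. Of these, Cyp26a1 passed the filter on low values only through the CDAHFD libraries, so it had to differ by diet and its calls support nothing further. Without NDWT replicate 4, 3 genes were called in WT, and 4 were called without NDWT replicate 1 or without any of HFWT replicates 1, 3, 4 and 5.

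**Figure D2:**
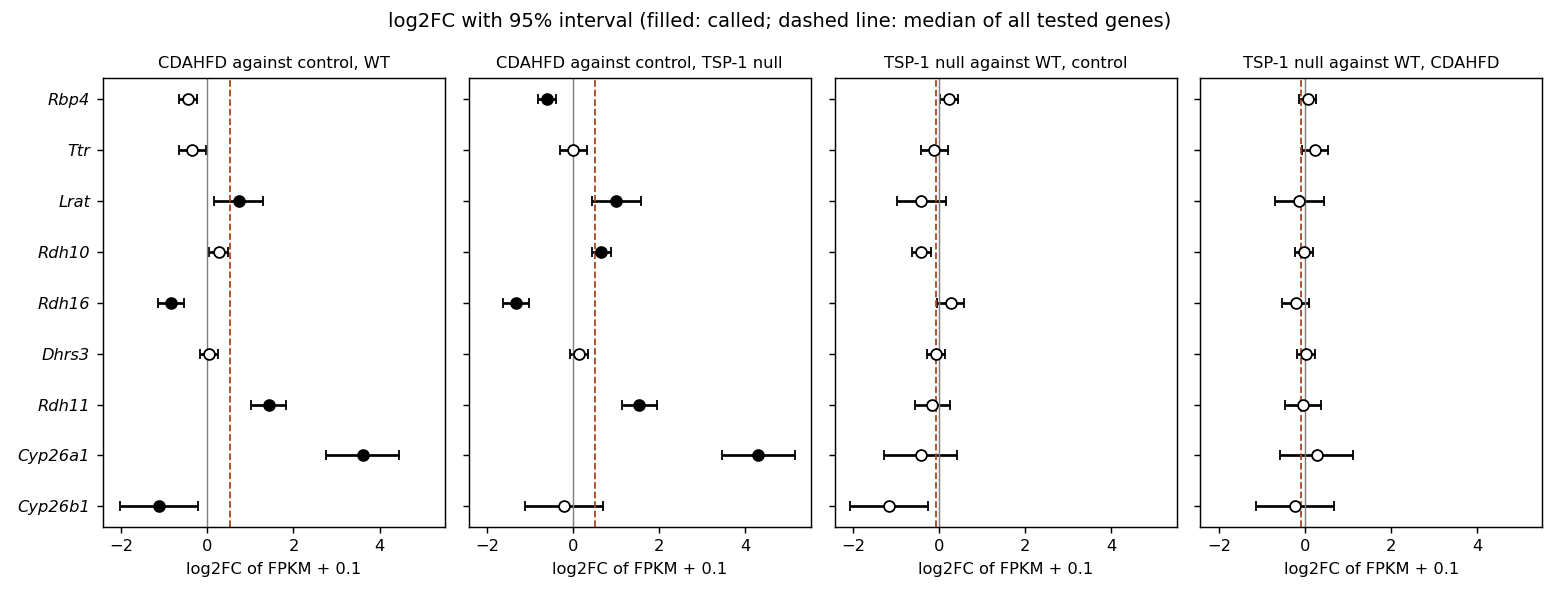
log2FC of FPKM + 0.1 with its 95% interval for the 9 retinoid genes in the diet comparison of each genotype and the genotype comparison on each diet, filled where called. The dashed line marks the median of all tested genes, at 0.53 and 0.50 for diet, so that in WT Lrat lay 0.20 and Cyp26a1 3.07 above it.

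Rbp4 (ENSMUSG00000024990.6, GRCm38 chromosome 19, 38116620 to 38125321, minus strand) encodes the plasma carrier of retinol, made mainly by hepatocytes. It was at 2627, 2562, 2184, 2568 and 2445 FPKM in NDWT and at 1823, 1854, 1837, 1815 and 1705 FPKM in HFWT. NDKO libraries held 3098, 2947, 3115, 3090 and 2293 FPKM and HFKO libraries 1877, 1753, 2108, 2176 and 1567 FPKM. Every CDAHFD library lay below every control diet library. In WT the log2FC was -0.45 (SE 0.10, FDR = 0.00038), which did not reach the fold change threshold, and in null mice Rbp4 fell by 0.62 on the log2 scale (SE 0.10, FDR = 1.48e-05). The call in null mice was lost without HFKO replicate 5 (log2FC -0.55) and under quantile normalization (log2FC -0.27), and the WT difference was called under median of ratios scaling (log2FC -1.01). Of 8 hepatocyte markers, 2 were called lower and none higher in each genotype, where 4.62% and 4.00% of all genes were called lower. Their part in the result was not tested. Groups that did not overlap in this direction made up 5.70% of all genes in WT and 5.03% in null mice.

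Ttr (ENSMUSG00000061808.3) encodes transthyretin, which holds the Rbp4 complex in the circulation. Its levels ran from 2704 to 3626 FPKM in NDWT, from 2199 to 3426 in NDKO, from 2076 to 2951 in HFWT and from 2102 to 3639 in HFKO, and all groups overlapped. In WT the log2FC was -0.35 (SE 0.15, FDR = 0.043), under the fold change threshold. In null mice it was 0.00 (95% interval -0.32 to 0.31, FDR = 0.99). Under median of ratios scaling the WT difference was called lower (log2FC -0.91), and under quantile normalization the TSP-1 null difference was 0.48.

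Lrat (ENSMUSG00000028003.6, GRCm38 chromosome 3, 82892579 to 82903973, minus strand) encodes lecithin retinol acyltransferase, which makes the retinyl esters stored in stellate cells. Control diet libraries held 3.11, 3.40, 3.49, 2.17 and 2.85 FPKM in NDWT and 2.10, 2.12, 2.59, 2.35 and 1.91 FPKM in NDKO. CDAHFD libraries held 7.45, 4.93, 7.94, 1.87 and 5.51 FPKM in HFWT and 4.05, 5.34, 3.21, 5.20 and 5.20 FPKM in HFKO. All HFKO libraries lay above all NDKO libraries, while HFWT replicate 4 lay below every NDWT library and the other 4 HFWT libraries lay above them. Lrat rose by 0.73 in WT (SE 0.27, FDR = 0.021) and by 1.00 in null mice (SE 0.27, FDR = 0.0026) on the log2 scale. The WT log2FC was 1.07 without HFWT replicate 4, and the WT call was lost without NDWT replicate 4, HFWT replicate 1 or HFWT replicate 3 (log2FC 0.62, 0.59 and 0.56) and when only NDWT and HFWT were fitted (FDR = 0.065). Neither genotype was called under median of ratios scaling (0.18 and 0.49) or quantile normalization (0.03 and 0.31).

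Most of the stellate cell markers were higher on CDAHFD in the fit that does not centre the median gene, as was Lrat. Lrat was not called under scalings that centre the median gene, and the markers were not fitted under those scalings. Of 11 such genes, 9 were called higher on CDAHFD in WT (median log2FC 1.39) and 8 in null mice (median log2FC 1.27), and none was called lower, where 44.1% and 41.9% of all genes were called higher. Their summed level ran from 132 to 179 FPKM in NDWT, from 179 to 204 in NDKO, from 232 to 441 in HFWT and from 299 to 344 in HFKO, with the lowest HFWT value in replicate 4, the library with the lowest Lrat. Reln, which marks quiescent stellate cells, was at 4.36 FPKM in that library and at 8.53 to 12.5 FPKM in the other HFWT libraries. Myofibroblast markers rose more, with 7 of 7 called higher in each genotype (median log2FC 4.20 in WT and 4.12 in null mice). All 5 cholangiocyte, all 6 T and B cell and all 3 tested neutrophil markers and 5 of 9 macrophage markers were called higher in each genotype, where 2 macrophage markers were called lower. The macrophage count is near the share of all genes called higher. In whole liver, fewer cells of a type and less RNA per cell cannot be told apart, and the part of cell composition in these results was not tested.

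**Figure D3:**
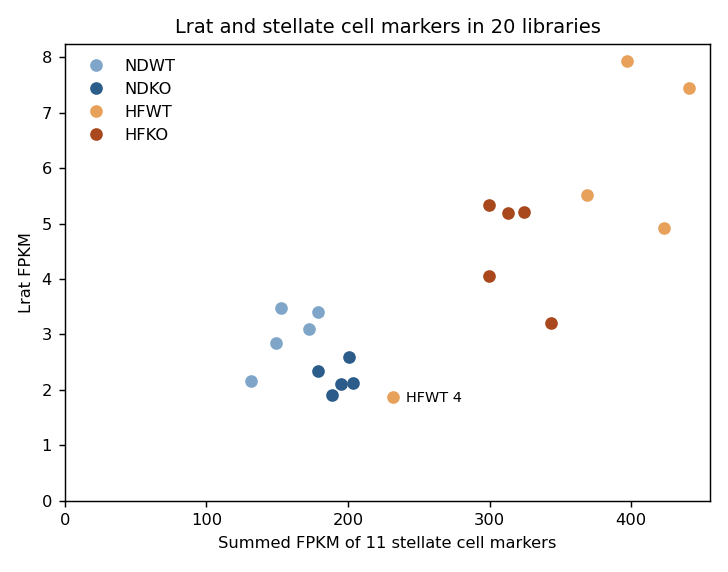
Lrat FPKM against the summed FPKM of 11 stellate cell markers in each library, coloured by group, both axes from 0. HFWT replicate 4, at 1.87 FPKM of Lrat and a marker sum of 232 FPKM, lies apart from the other CDAHFD libraries, which held at least 3.21 FPKM of Lrat and at least 299 FPKM of the markers.

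Rdh10 (ENSMUSG00000025921.7, GRCm38 chromosome 1, 16105774 to 16133734, plus strand) encodes the dehydrogenase that oxidises retinol to retinaldehyde. It was at 6.09, 6.57, 6.10, 4.97 and 6.05 FPKM in NDWT and 4.65, 4.69, 4.23, 3.62 and 5.07 FPKM in NDKO. On CDAHFD it was at 8.70, 7.21, 6.95, 6.50 and 6.49 FPKM in HFWT and 7.71, 6.87, 6.79, 7.82 and 6.004 FPKM in HFKO. NDKO held the lowest values, with every HFKO library above every NDKO library, and HFWT overlapped with NDWT. Rdh10 rose by 0.65 in null mice (SE 0.10, FDR = 1.39e-05), and in WT the log2FC was 0.26 (SE 0.10, FDR = 0.029), under the fold change threshold. Relative to the median of all genes these differences were 0.15 and -0.27. Under median of ratios scaling they were 0.13 and -0.29 and neither was called, and the null difference was not called under quantile normalization or with a pseudocount of 1.

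Rdh16 (ENSMUSG00000069456.4, GRCm38 chromosome 10, 127801152 to 127846565, plus strand) encodes a short-chain dehydrogenase that acts on retinol and steroids. It was at 30.2, 24.1, 27.9, 31.7 and 30.6 FPKM in NDWT and 33.3, 35.6, 39.4, 41.7 and 25.4 FPKM in NDKO. HFWT libraries held 12.2, 19.4, 17.4, 12.9 and 19.4 FPKM and HFKO libraries 12.9, 16.5, 13.1, 11.8 and 14.6 FPKM. Every CDAHFD library lay below every control diet library. Rdh16 fell by 0.85 in WT (SE 0.15, FDR = 3.44e-05) and by 1.33 in null mice (SE 0.15, FDR = 1.38e-07) on the log2 scale. Of the 6174 different 31-base sequences in its transcripts, 22.4% also occur in other genes, Rdh9 among them, so its level is uncertain. Rdh9 itself, from the same cluster of genes, rose by 2.49 and 2.17.

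Dhrs3 (ENSMUSG00000066026.8, GRCm38 chromosome 4, 144892827 to 144928209, plus strand) encodes the reductase that returns retinaldehyde to retinol and acts together with Rdh10. On control diet its mean was 54.5 ± 5.92 FPKM for NDWT and 51.8 ± 5.33 FPKM for NDKO, and on CDAHFD 56.3 ± 8.80 FPKM for HFWT and 56.6 ± 3.60 FPKM for HFKO (SD, n = 5). All groups overlapped. The log2FC on CDAHFD was 0.04 in WT (95% interval -0.17 to 0.25, FDR = 0.74) and 0.13 in null mice (95% interval -0.08 to 0.34, FDR = 0.25). Its direction flipped under median of ratios scaling (-0.52 and -0.40) and under quantile normalization (-0.07 and -0.03).

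Rdh11 (ENSMUSG00000066441.8, GRCm38 chromosome 12, 79174337 to 79192293, minus strand) encodes an NADPH-dependent retinaldehyde reductase that is also known as a gene regulated by sterols. It was at 3.20, 4.15, 3.98, 3.36 and 3.32 FPKM in NDWT and 2.48, 3.82, 2.93, 2.83 and 4.21 FPKM in NDKO. HFWT libraries held 13.2, 11.6, 8.75, 9.24 and 7.20 FPKM and HFKO libraries 9.71, 6.995, 8.71, 15.8 and 7.97 FPKM. All CDAHFD libraries lay above all control diet libraries, with the highest value in HFKO replicate 4. Rdh11 rose by 1.42 in WT (SE 0.20, FDR = 2.36e-06) and by 1.53 in null mice (SE 0.20, FDR = 1.01e-06) on the log2 scale. Groups that did not overlap in this direction made up 50.5% of all genes in WT and 52.7% in null mice.

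Cyp26a1 (ENSMUSG00000024987.5, GRCm38 chromosome 19, 37697808 to 37701528, plus strand) encodes the hydroxylase whose expression in liver is known to follow retinoic acid. On control diet it was at 0.315, 0.439, 0.032, 0.131 and 0.141 FPKM in NDWT, which corresponds to 13, 13, 1, 4 and 5 fragments. NDKO libraries held 0.355, 0.149, 0.090, 0.035 and 0.028 FPKM, or 13, 6, 3, 1 and 1 fragments. CDAHFD libraries held 5.98, 1.53, 3.53, 3.85 and 3.00 FPKM in HFWT, or 51 to 190 fragments, and 5.85, 3.86, 2.48, 5.45 and 3.20 FPKM in HFKO, or 79 to 229 fragments. No control diet library reached the lowest CDAHFD library, and on control diet the values were near the floor. The gene passed the filter on low values only through the CDAHFD libraries, so it had to differ by diet and its call supports nothing further. Cyp26a1 rose by 3.61 in WT (SE 0.41, FDR = 1.86e-07) and by 4.30 in null mice (SE 0.41, FDR = 1.98e-08), the largest log2FC of the 9 genes. Its size depended on the pseudocount, between 1.85 and 4.29 in WT and between 2.15 and 5.31 in null mice over the alternatives, all of which kept the call.

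Cyp26b1 (ENSMUSG00000063415.6, GRCm38 chromosome 6, 84571414 to 84593908, minus strand) encodes the related hydroxylase. It was at 4.598, 2.26, 2.82, 4.65 and 2.01 FPKM in NDWT and 1.44, 1.35, 2.35, 2.31 and 0.337 FPKM in NDKO. HFWT libraries held 2.33, 1.57, 1.93, 0.827 and 0.740 FPKM and HFKO libraries 0.747, 1.28, 0.596, 1.83 and 1.67 FPKM. The values were scattered and neighbouring groups overlapped, with NDWT highest. Cyp26b1 fell by 1.13 in WT on the log2 scale (SE 0.43, FDR = 0.025), and in null mice the log2FC was -0.21 (95% interval -1.12 to 0.70, FDR = 0.67). The difference between genotypes was itself not called (interaction 0.92, SE 0.61, FDR = 0.52). The WT call was lost without NDWT replicate 1, NDWT replicate 4, HFWT replicate 4 or HFWT replicate 5 (log2FC -0.99, -0.99, -0.97 and -0.93), and quantile normalization called Cyp26b1 lower in null mice as well (log2FC -1.09).

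Within a library the Cyp26a1 to Cyp26b1 ratio was far higher on CDAHFD. Cyp26a1 was at 0.0114 to 0.194 of the Cyp26b1 level in NDWT and 0.0152 to 0.247 in NDKO, and at 0.975 to 4.65 in HFWT and 1.92 to 7.83 in HFKO, so the diets did not overlap. Cyp26a1 passed the filter on low values only through the CDAHFD libraries, so a diet difference in this ratio was built in. It supports nothing further, and on control diet the Cyp26a1 level rested on 1 to 13 fragments a library. The ratio of Dhrs3 to Rdh10 was lowest in median on CDAHFD (7.82 in HFWT and 7.68 in HFKO, against 9.20 in NDWT), and all 5 NDKO libraries (11.1 to 12.2) lay above all libraries of the other groups. Rbp4 to Ttr ranged from 0.669 to 1.40 in NDKO and overlapped across all groups. The median of Lrat to Rbp4 was 0.00118 for NDWT and 0.000761 for NDKO, and 0.00323 for HFWT and 0.00239 for HFKO, while HFWT replicate 4 (0.00103) lay within the NDWT range. Multiplying a library by a factor leaves these ratios as they are, and none was tested.

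**Figure D4:**
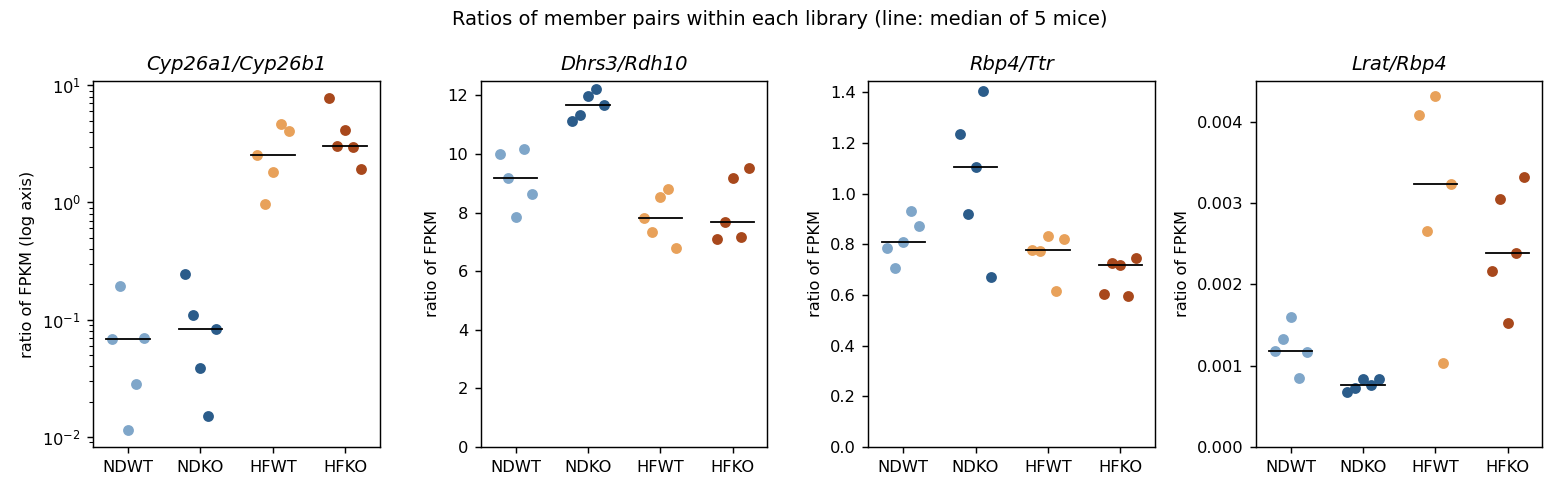
Ratios of FPKM within each library for 4 pairs of genes, with the median of 5 mice as a line, the first panel on a log axis and the others on linear axes from 0. The Cyp26a1 to Cyp26b1 ratio was at most 0.247 on control diet and at least 0.975 on CDAHFD. Cyp26a1 passed the filter only through the CDAHFD libraries, so this split by diet supports nothing further.

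The wider retinoid pathway was described from a list of 75 further genes, of which 56 passed the filter. On CDAHFD, the WT comparison called 33 (24 higher, 9 lower) and the null comparison 31 (24 higher, 7 lower), against 48.8% and 45.9% of all genes, and the median log2FC was 0.34 and 0.38, below that of all genes. Of all genes, 44.1% and 41.9% were called higher and 4.62% and 4.00% lower. Under median of ratios scaling, these became 28 (11 higher, 17 lower) and 27 (12 higher, 15 lower). Among the genes named for diet, the direction flipped in at least 1 genotype under quantile normalization for Stra6l, Aldh1a3, Bco1, Cyp2c39 and Rara, and also under median of ratios scaling for Stra6l and Rara. The calls of Stra6l, Aox1, Bco1, Cyp2c39, Rara and Cebpe were lost in at least 1 genotype under median of ratios scaling and under quantile normalization. Those of Aldh1a3 and Rarb were lost in WT under quantile normalization. The calls of Stra6l, Bco1 and Aldh1a3 in WT were also lost with a pseudocount of 1, and that of Stra6l without NDWT replicate 4 or 5 or HFWT replicate 1 or 3. The call of Cyp2c39 was lost with a pseudocount of 1 in both genotypes. In WT it was also lost with no filter, under limma-voom and without NDWT or HFWT replicate 2 or 5, and in null mice without NDKO replicate 2 or 5 or HFKO replicate 1 or 4.

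Of the binding and uptake genes, Fabp5, which binds fatty acids and retinoic acid, rose by 2.08 and 2.59. Stra6l, a membrane receptor for Rbp4, was called in WT (log2FC 0.60) and not in null mice (log2FC 0.16, FDR = 0.22).

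Of 6 genes that oxidise retinaldehyde, 3 were called higher in each genotype, a share near that of all genes (44.1% and 41.9%). Aldh1a2, a retinaldehyde dehydrogenase, was at 0 to 3 fragments in every control diet library and at 0.566 to 0.819 FPKM in HFWT and 0.367 to 0.973 FPKM in HFKO, and was called in both genotypes. It passed the filter on low values only through the CDAHFD libraries, so it had to differ and its call supports nothing further, and it was not tested under the stricter filter. Aox1 rose by 0.79 and 1.08, and Aldh1a3 was called in WT alone (log2FC 1.47, against 0.58 with FDR = 0.083 in null mice). Among 16 alcohol and short-chain dehydrogenases, 6 were called higher in each genotype, likewise near the share of all genes, and 2 lower in WT (4.62% of all genes). The largest changes were those of Dhrs9 (3.09 and 2.91), which oxidises retinol, Rdh9 (2.49 and 2.17) and the aldose reductase Akr1b3 (1.91 and 1.64).

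Genes of retinyl ester turnover and of retinol saturation moved in both directions. Of 10 genes for ester formation and hydrolysis, 2 were called higher and 4 lower in each genotype. Of all genes, 44.1% in WT and 41.9% in null mice were called higher, and 4.62% and 4.00% lower. Lpl, which hydrolyses retinyl esters in lipoproteins as well as triglycerides, rose from 3.39 ± 0.789 FPKM in NDWT to 68.2 ± 8.13 FPKM in HFWT (SD, n = 5) and by 4.31 and 3.73 on the log2 scale. The carboxylesterases Ces1f and Ces1d fell by 2.35 and 1.86 in WT and by 1.48 and 1.47 in null mice. Retsat, which saturates retinol, fell from 577 ± 76.5 to 85.3 ± 31.6 FPKM in WT and in null mice from 548 ± 174 to 116 ± 10.7 FPKM (SD, n = 5), by 2.84 and 2.18 on the log2 scale. Bco1, which cleaves carotene to retinaldehyde, rose by 0.66 and 1.09. Of the clearance genes, Ugt2b1 fell by 1.63 and 1.43 and Cyp2c39 rose by 0.75 and 0.78.

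Of 10 receptors and corepressors, 4 were called higher in WT and 6 in null mice and none lower, where 44.1% and 41.9% of all genes were called higher. Under median of ratios scaling only Rarb and Rarg were still called higher in each genotype. Another receptor was then called lower in WT (log2FC -0.76). Rarb was at 0.691 to 1.32 FPKM in NDWT and 2.33 to 3.48 FPKM in HFWT, and at 0.435 to 1.18 in NDKO and 2.35 to 2.96 FPKM in HFKO, with no overlap between diets, and rose by 1.37 and 1.67. Such a lack of overlap in this direction was found for 50.5% of all genes in WT and 52.7% in null mice. Rarg rose by 1.85 and 1.67. Rara rose by 1.02 in null mice, and in WT its log2FC was 0.52 (FDR = 0.00070), under the fold change threshold. Of 5 tested genes known to respond to retinoic acid, 4 in WT and 3 in null mice were called higher, where 44.1% and 41.9% of all genes were. They included Tgm2 (1.17 and 1.52), a transglutaminase, and Cebpe (0.80 and 1.16). Under median of ratios scaling only Tgm2 was still called higher in WT (log2FC 0.61), while the 3 in null mice kept their calls. Under quantile normalization only Tgm2 kept its call in null mice (log2FC 1.29). Rarres1 was called lower in both genotypes (-1.58 and -0.998). Tgm2, Cebpe and Rarg are also expressed by immune or mesenchymal cells, whose markers rose on this diet, and the part of those cells was not tested.

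**Figure D5:**
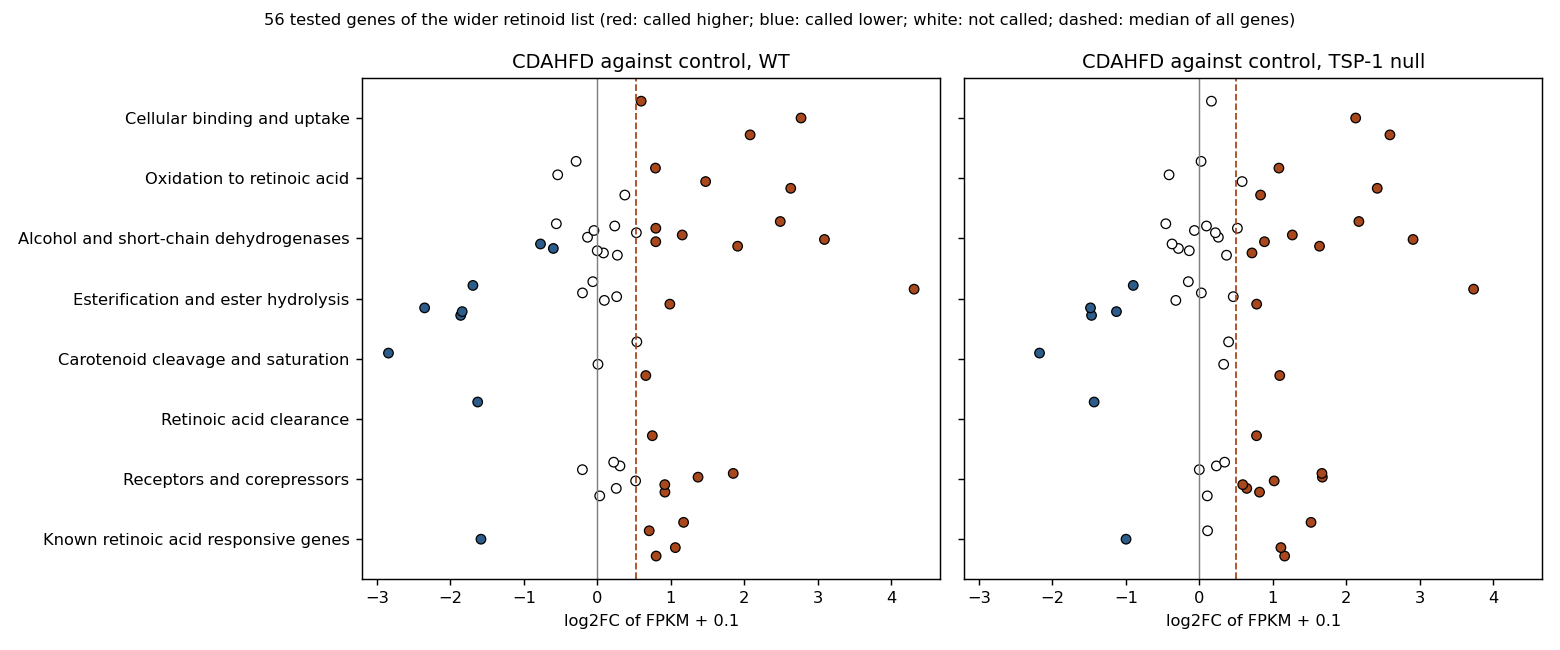
log2FC of FPKM + 0.1 on CDAHFD against control diet for the 56 tested genes of the wider retinoid list by role, in WT and in null mice, red where called higher and blue where called lower. Lpl lies farthest to the right (4.31 and 3.73) and Retsat farthest to the left (-2.84 and -2.18), with the dashed line at the median of all genes.

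On control diet, limma called none of the 9 genes by genotype, where 4.77% of all genes were called (1.74% higher and 3.03% lower in the libraries labelled null). No gene of the 9 had groups that did not overlap (9.03% of all genes, 6.69% lower). At an unadjusted p under 0.05 there were 3 (Rbp4, Rdh10 and Cyp26b1), and limma-voom on recovered fragments called 1, Cyp26b1 (FDR = 0.042). The share of all genes at that unadjusted p was not counted, so the 3 cannot be read as an excess. Rdh10 was lower in NDKO (log2FC -0.42, SE 0.10, FDR = 0.012), under the fold change threshold, with only NDWT replicate 4 (4.97 FPKM) below the highest NDKO library (5.07 FPKM). Cyp26b1 was lower in NDKO with a log2FC of -1.16 (SE 0.43, FDR = 0.085), and Rbp4 was higher by 0.23 (SE 0.10, FDR = 0.14).

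Of the wider list, 8 genes were called on control diet, 2 higher and 6 lower in the libraries labelled TSP-1 null, where 1.74% and 3.03% of all genes were. Rdh16f2, a relative of Rdh16 whose reads may be shared with it, was higher by 0.62 (FDR = 0.0091). Among the lower genes were the retinaldehyde dehydrogenase Aldh1a1, called alone among the 6 oxidation genes, and the alcohol dehydrogenases Adh4 and Adh7, the 2 called lower of 16 dehydrogenases. Aldh1a1 was at 395 ± 44.2 FPKM in NDKO and 638 ± 53.6 FPKM in NDWT (SD, n = 5, log2FC -0.69, FDR = 0.00054), Adh4 at 59.8 ± 10.9 and 114 ± 27.3 FPKM (log2FC -0.91, FDR = 0.0016) and Adh7 at 5.06 ± 0.591 and 7.74 ± 1.48 FPKM (log2FC -0.59, FDR = 0.0054). Aldh1a1 libraries did not overlap between the genotypes. Ces1f (log2FC -0.92), Rarres1 (-1.16) and Cebpe (-0.85) were lower as well. Of the genes named here, Aldh1a1, Adh4, Ces1f and Rarres1 were called in the same direction under all 31 alternatives. The call of Adh7 was lost under both other scalings, with a pseudocount of 1, and without NDWT replicate 2 or 5 or NDKO replicate 1 or 4. That of Rdh16f2 was lost without NDWT replicate 1 or NDKO replicate 1. The call of Cebpe was lost under quantile normalization, with no filter, when only NDWT and NDKO were fitted, and without NDWT replicate 1, 3 or 5 or NDKO replicate 3 or 4.

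On CDAHFD, none of the 9 genes and none of the 56 was called between genotypes by limma or limma-voom, where limma called 0.496% of all genes (0.330% lower). None of the 9 had groups that did not overlap (4.98% of all genes, 4.13% lower). At an unadjusted p under 0.05 there were 0 of the 9 and 15 of the 56. The 95% interval of the genotype difference on CDAHFD was -0.15 to 0.27 for Rbp4, -0.70 to 0.43 for Lrat, -0.46 to 0.36 for Rdh11, -0.59 to 1.12 for Cyp26a1 and -1.15 to 0.66 for Cyp26b1, and only the intervals of both Cyp26 genes reach past a log2FC of 1 or -1. For the interaction of diet and genotype, limma called 0.647% of all genes and none of the 9 or of the 56. At an unadjusted p under 0.05 there were 2 of the 9, Rdh10 (0.39, FDR = 0.20) and Rdh16 (-0.49, FDR = 0.27), and 16 of the 56, and limma-voom called 0 of the 9 and 1 of the 56. The share of all genes at an unadjusted p under 0.05 was not counted, so the counts at that p in this paragraph cannot be read as an excess.

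Genes whose deviations from the group means ran most like those of each of the 9 genes were named by Pearson's r over 20 libraries, as a description without a test. For Lrat they were Abcc9 (r = 0.84), Colec11 (r = 0.83) and Gabra3 (r = 0.83), and Colec11 is on the list of stellate cell markers. Over the 11 stellate markers r with Lrat had a median of 0.64 and ran from 0.32 to 0.83, and without HFWT replicate 4 the median was 0.13 and the range -0.22 to 0.41, so this likeness rested on 1 library. For Rdh11 they were Nsdhl (r = 0.95), Fdps (r = 0.91) and Pfkm (r = 0.89), for Rdh16 Decr1 (r = 0.91), Hadha (r = 0.89) and Hadhb (r = 0.88), and for Dhrs3 Ergic3 (r = 0.95) and Ergic1 (r = 0.92). Ttr ran most like C8g (r = 0.90), Rbp4 like Ddt (r = 0.87), Rdh10 like 0610030E20Rik (r = 0.88), Cyp26b1 like Nploc4 (r = 0.87) and Cyp26a1 like Fuz (r = 0.86). Among the 9 genes, deviations of Rdh16 ran against those of Dhrs3 (r = -0.69), Ttr (r = -0.66) and Rdh10 (r = -0.65), and Ttr and Rdh11 ran together (r = 0.66). Libraries share their depth and their RNA composition across genes, which such values include.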

How the data were processed

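Poly(A) RNA from the livers of 20 mice was sequenced in pairs. The submitters' processing notes name STAR 2.5.2, Subread 1.5.1 and featureCounts, and a human build, whereas the table's coordinates match GRCm38 (37607 of 38924 identifiers are in GENCODE M21). The deposited FPKM values were made by the authors with QuickRNASeq and carry no further normalization between libraries. The sources differ on the lobe sampled (right medial or right lateral).

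FPKM times gene length and library total was whole within 0.1 for 100% of values checked (67.9% to 85.6% of positive values), which gave fragments per gene. The depth floor of 3 fragments covers counting error only, since no molecular identifiers were used. No 2 libraries of a group were copies. Genes whose FPKM exceeded 0.5 in 5 or more libraries were kept (14524). The fit used limma 3.58.1 (R 4.3.3) with a mean for each group over all 20 libraries, lmFit, contrasts.fit and eBayes with trend, on log2(FPKM + 0.1), two-sided, with Benjamini-Hochberg adjustment within each comparison. The scripts were tested on simulated data. Replicate numbers did not pair the samples.

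The 9 genes, the 75 further genes and the marker lists were chosen with earlier results of these data known. Named are the 9 genes, in each role at most 3 called genes with the largest absolute log2FC by diet, the further genes called by genotype, the genes most like each of the 9, and Thbs1. The result of 1 further gene is not reported here. Reln, Tnfsf13b, Blvrb and Ppbp were named after their values were seen. Results were recomputed with other pseudocounts, filters, scalings, thresholds and fits, with a replicate block, with limma-voom and without each library. Tables and figures were made in Python 3.11.15 (numpy 2.4.6, pandas 2.3.3, matplotlib 3.10.9).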

Additional observations from a re-analysis of the deposited data

Results flagged for a closer look

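Among 36 sets of 5 values (9 genes in 4 groups), 2 held a library whose gap to the nearest of the others exceeded 0.71 of the group's range, and chance gives such a gap in about 1 in 20 sets. Both concern Rbp4. NDKO replicate 5 was at 2293 FPKM with the other 4 libraries at 2947 to 3115 FPKM, and HFWT replicate 5 was at 1705 FPKM with the other 4 at 1815 to 1854 FPKM. Without NDKO replicate 5 the log2FC of Rbp4 on CDAHFD in TSP-1 null mice was -0.70 against -0.62 with all libraries.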

How the results depend on the processing

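With no fold change threshold, 8 of the 9 genes were called by diet in WT, and 1 of the 9 and 17 of the 56 further genes by genotype on control diet. Limma-voom called 1 of the 9 by genotype on control diet and 1 of the 56 for the interaction, where quantile normalization also called 1. Leaving out single libraries, 3 to 5 of the 9 were called by diet in WT and 0 to 2 of the 56 for the interaction (2 without NDKO replicate 2). Median of ratios scaling and quantile normalization turned the direction of genes that had not been called. For diet in WT, Rdh10 was -0.29 and -0.33 and Dhrs3 -0.52 and -0.069. For diet in null mice, Dhrs3 was -0.40 and -0.028, and Ttr 0.48 under quantile normalization. For genotype on control diet, Dhrs3 was 0.0041 and 0.0076. For genotype on CDAHFD, Rdh10 was 0.076 and 0.0765 and Rdh11 0.0498 and 0.0167. A left-out library turned the direction of uncalled differences, within these ranges. For diet, Dhrs3 ran from -0.033 to 0.12 in WT and Ttr from -0.10 to 0.10 in null mice. For genotype on CDAHFD, Lrat ran from -0.48 to 0.028, Rdh10 from -0.063 to 0.047, Dhrs3 from -0.064 to 0.093 and Rdh11 from -0.24 to 0.058. For the interaction, Lrat ran from -0.068 to 0.44 and Rdh11 from -0.074 to 0.22. The causes were not tested. Of 30 pairs of libraries with the same replicate number, 0 had a correlation of deviations over 0.1 (-0.133 to 0.0812), and with the replicate as a block 5 of the 9 genes were called by diet in WT, 6 in null mice and 0 by genotype. Depth limited Cyp26a1 on control diet (1 to 13 fragments a library), so the size of its fold change is uncertain.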
